A study of Chlamydomonas reinhardtii with 8 samples.

Results

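*LHCSR1*, *LHCSR2* and *LHCSR3* are the stress-related light-harvesting genes of the green alga *Chlamydomonas reinhardtii*. They were taken by their JGI 3.1 transcript models, 184724 for *LHCSR1*, 184731 for *LHCSR2* and 184730 for *LHCSR3*, as 3 of the 14557 models on a 2-colour Agilent array. Each model has 3 probes, numbered 1 to 3, which gives 9 of the 43705 transcript probes. No choice by measured values was made among these probes, and all 9 were kept.

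LHCSR proteins belong to the family of chlorophyll-binding antenna proteins. Unlike the main antenna, which passes light energy to the photosystems, they turn excess light energy into heat when the thylakoid lumen becomes acid, a process measured as non-photochemical quenching. In *C. reinhardtii* they are known to be made under high light and under nutrient stress, and LHCSR3 is the protein lacking in the *npq4* mutant. The LHCSR3 protein is known to be encoded by a pair of nearly identical neighbouring gene copies, while *LHCSR1* is a separate gene. The study's text names isoforms of *LHCSR3* and no *LHCSR2*, while its tables list *LHCSR2* and *LHCSR3*. It does not say whether these are that pair, so they may not stand for different proteins.

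In the NCBI RefSeq table of the v5.5 assembly the 3 models were found under the locus tags CHLRE_08g365900v5 (*LHCSR1*), CHLRE_08g367500v5 (*LHCSR2*) and CHLRE_08g367400v5 (*LHCSR3*). The loci of *LHCSR3* and *LHCSR2* follow each other directly in that table. The probes were designed on another build, so no coordinates are given. Probes of *LHCSR2* and *LHCSR3* may bind the transcript of the other gene, and their values are uncertain for that reason.

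The starvation arrays compared RNA of the wild type cc3491, grown in TAP medium, an acetate medium, without sulfur and labelled with Cy5, with RNA of the same strain at T0, before starvation, labelled with Cy3. There were 6 such arrays, numbered 1 to 6, with arrays 1 to 4 on slide 1 and arrays 5 and 6 on slide 2. The time labels of the starved RNA were 24, 48, 72, 96, 24 and 48 h for arrays 1 to 6, whereas every title says 24 h, and the arrays were therefore treated as replicates of starved against T0. The dye test consisted of the arrays label1 and label2 on slide 3, whose Cy3 and Cy5 channels were both labelled as the wild type cc125 after 24 h of starvation. The T0 cultures had reached early stationary phase, and dyes were not swapped. The study speaks of biological and technical replicates without saying which arrays are which, so that p-values measure only the spread between these arrays, which may be technical.

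Several arrays stood apart from the rest or from their labels. On arrays 1 and 2 only 2180 and 2450 of 43705 probes were well above background in at least 1 channel, against 16818 to 24446 on arrays 3 to 6, and the main comparison was made on arrays 3 to 6. On label2, where both channels should hold the same RNA, 9% of 43050 probes were at least 2-fold higher and 11.9% at least 2-fold lower in Cy5 than in Cy3, against 0.3% and 0.182% of 38991 probes on label1. Of 24 probes for 8 genes listed as markers of sulfur starvation, 20 were at least 2-fold higher in Cy5 on label2, and 0 of 23 on label1. On arrays 3 to 6, 12, 13, 9 and 8 of these 24 probes were above background. Of all probes 50.7%, 55.9%, 41.6% and 38.5% were, so that the markers were not set apart by this count. The arylsulfatase gene *ARS1*, a defining marker of sulfur starvation, was above background with 0 of 3 probes on every one of these arrays. The sulfate transporter gene *SLT1* was higher in the starved channel on all 4 arrays, with mean log2 ratios of 1.95, 2.29 and 2.75 for probes 1 to 3, but did not pass Holm adjustment (limma, Holm-adjusted p = 0.171, 0.0535 and 0.726). The other 6 tested marker probes, of *ATS2*, *SUOX1* and *SIR1*, had mean log2 ratios between -0.30 and 0.52. Of the 9 tested, 0 were called with Holm adjustment and 3, all of *SLT1*, were called higher with Benjamini-Hochberg adjustment, against 0.795% and 4.7% of all 18236 tested probes called higher. Probe 1 of the extracellular protein gene *ECP76* was above background on 2 of the 4 arrays and so was not tested. Its log2 ratios were 4.45, 3.66, 0.13 and 0.46 on arrays 3 to 6. Probes 2 and 3 of *ECP76* were above background on 0 of them. Bulk RNA cannot tell a change in RNA per cell from a change in the cells that make up the culture.

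*LHCSR1* had a far lower signal in starved than in T0 RNA on every array on which it could be measured. The processed signal is the fluorescence of a spot after the scanner software removed background and balanced the dyes. For probe 1 it was 1102, 1090, 463 and 396 in the starved channel on arrays 3 to 6, against 15417, 15833, 6993 and 6601 in the T0 channel. For probe 2 it was 1236, 1402, 550 and 514 in starved RNA, against 15350, 17400, 7055 and 6849 in T0 RNA. The ranges of starved and T0 signals did not overlap, and both channels were dimmer on slide 2 than on slide 1.

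Probe 3 of *LHCSR1* gave weak signals. They were 52.7, 85.5, 25.2 and 24.3 in starved RNA, against 504, 596, 245 and 237 in T0 RNA. The starved channel was well above background on array 4 alone, so that on 3 of 4 arrays its ratio rests on a starved signal that was not measured above background.

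**Figure D1:**
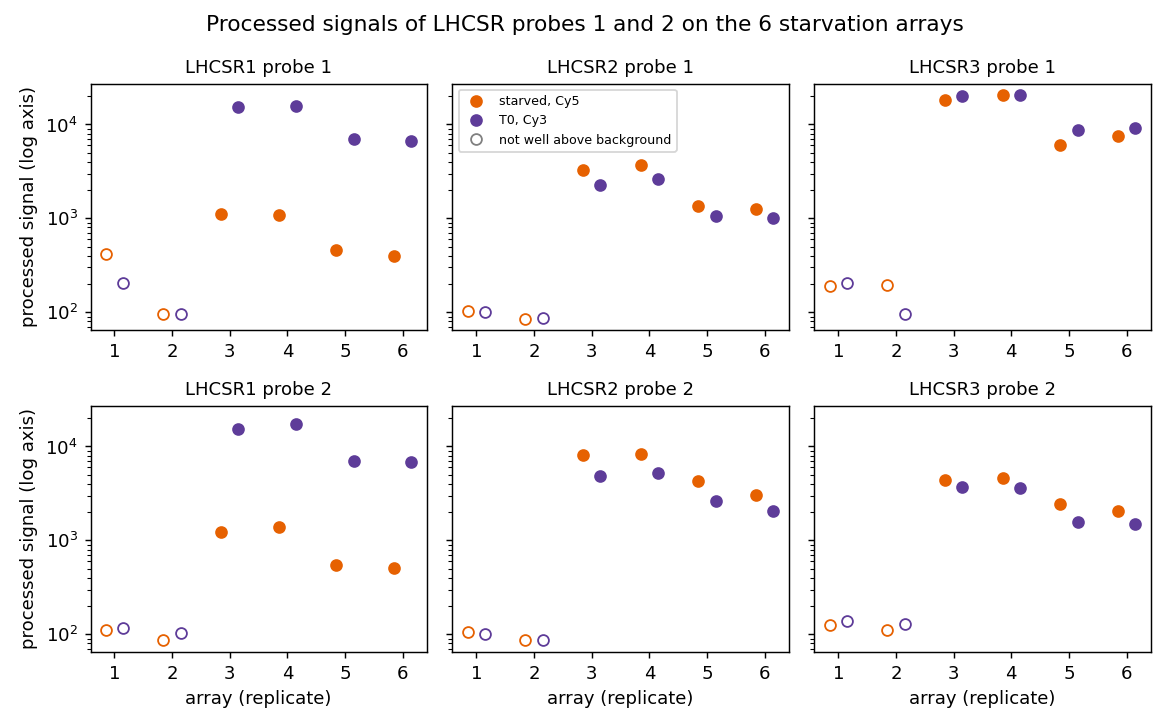
Processed signals of probes 1 and 2 of each LHCSR gene, in arbitrary units on a log axis, on the 6 starvation arrays (numbers on the horizontal axis), with starved RNA in orange left of T0 RNA in purple. Open points were not well above background, which holds for both channels on arrays 1 and 2. On arrays 3 to 6 the starved signal of *LHCSR1* lies far below the T0 signal, while those of *LHCSR2* and *LHCSR3* lie close together.

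The log2 ratio of starved over T0 was normalized by loess within each array, and the mean over arrays 3 to 6 was tested against 0 with limma. Per array the log2 ratios of *LHCSR1* probe 1 were -3.78, -3.82, -3.90 and -4.03, those of probe 2 were -3.61, -3.60, -3.66 and -3.71, and those of probe 3 were -3.20, -2.74, -3.10 and -3.09. The values of probes 1 and 2 lay below 0 on 4 of 4 arrays each. Those of probe 3 did too, but they are not counted as further evidence, since its starved channel was well above background on array 4 alone. The direction follows the dyes in the labels. It is opposite to the increase under sulfur starvation that the study describes for this gene, as a mean over its time points.

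All 3 probes of *LHCSR1* were called lower in starved RNA, with limma, Holm adjustment over 18236 probes and a change of at least 2-fold. Probe 1 fell by 3.88 ± 0.11 on the log2 scale (SD, n = 4), which is 14.8-fold lower (limma, Holm-adjusted p = 0.00156). Probe 2 fell by 3.64 ± 0.053 (SD, n = 4), 12.5-fold lower (limma, Holm-adjusted p = 8.08e-04). Probe 3 passed with a mean log2 ratio of -3.03 ± 0.20 (SD, n = 4; limma, Holm-adjusted p = 0.0239). Since its starved channel was well above background on 1 of 4 arrays, this value is not the size of a change. It entered the test through its T0 channel. When both channels had to be above background, it was not tested. Then 2 LHCSR probes, 1 and 2 of *LHCSR1*, were called, among 466 of 12577 probes. Probes 1 and 2 ranked as the 8th and 11th lowest of the 18236 probes, and among all these probes 0.367% were called lower and 0.795% higher. With Benjamini-Hochberg adjustment the same 3 of 9 probes were called lower and 0 of 9 higher, against 4.28% and 4.7% of all probes.

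The call of single *LHCSR1* probes changed with the background correction and with the number of arrays. The log2 ratios of probes 1 and 2 moved little when 1 of arrays 3 to 6 was left out. With normexp background correction before loess, 0 of 9 probes were called, and the log2 ratios of probes 1 and 2 were -3.06 and -2.85 (limma, Holm-adjusted p = 0.0797 and 0.155). Without any background correction probes 1 and 2 were called, at -3.33 and -3.10 (limma, Holm-adjusted p = 3.22e-04 and 0.00220). Probe 3 was at -0.85 with normexp and lost its call under 13 of 21 alternatives. With all 6 arrays, which adds arrays 1 and 2, 0 probes were called, and probes 1 and 2 were at -2.42 and -2.48. Without array 3 or without array 4, 0 probes were called, without array 5 only probe 2, and without array 6 probes 1 and 2. With 1 of these arrays left out, probe 1 stayed between -3.92 and -3.83 and probe 2 between -3.66 and -3.62.

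*LHCSR2* gave slightly higher signals in starved than in T0 RNA with all its probes. The processed signals of probe 1 were 3270, 3681, 1350 and 1272 in starved RNA on arrays 3 to 6, against 2250, 2630, 1059 and 1001 in T0 RNA. Those of probe 2 were 8204, 8233, 4293 and 3038 in starved RNA, against 4908, 5228, 2660 and 2077 in T0 RNA. Within each array the starved signal was the higher one, although the ranges over arrays overlap.

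Probe 3 of *LHCSR2* was dim, with 283, 295, 138 and 129 in starved RNA, against 153, 153, 81.7 and 82.1 in T0 RNA, but well above background in both channels on 4 of 4 arrays. The log2 ratios averaged 0.46 ± 0.10, 0.68 ± 0.08 and 0.90 ± 0.09 for probes 1 to 3 (SD, n = 4 each), or 1.38-, 1.61- and 1.87-fold higher. None of the 3 reached the Holm threshold or a mean change of 2-fold (limma, Holm-adjusted p = 1, 1 and 0.892), while the Benjamini-Hochberg adjusted p from limma was 0.0060, 0.00164 and 9.04e-04. The single values ran between 0.37 on array 6 for probe 1 and 1.01 on array 4 for probe 3.

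*LHCSR3* showed no common direction among its probes. Its probe 1 gave 18342, 20346, 6002 and 7455 in starved RNA, against 19958, 20669, 8793 and 9250 in T0 RNA. Its probe 2 gave 4363, 4602, 2435 and 2062 in starved RNA, against 3668, 3628, 1589 and 1495 in T0 RNA. The starved signal was thus the lower one with probe 1 and the higher one with probe 2 on each array, while after loess the log2 ratio of probe 1 on array 4 was 0.04.

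Probe 3 of *LHCSR3* gave 154, 131, 29.3 and 55.0 in starved RNA, against 148, 163, 68.0 and 63.5 in T0 RNA, and its starved channel was above background on arrays 3 and 4 alone. The mean log2 ratios of probes 1 to 3 were -0.22 ± 0.26, 0.45 ± 0.15 and -0.23 ± 0.44 (SD, n = 4 each). No probe of *LHCSR3* was called (limma, Holm-adjusted p = 1 for each), and the Benjamini-Hochberg adjusted p was 0.186, 0.0115 and 0.358. Probe 2 was higher on 4 of 4 arrays, with log2 ratios between 0.28 and 0.64.

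**Figure D2:**
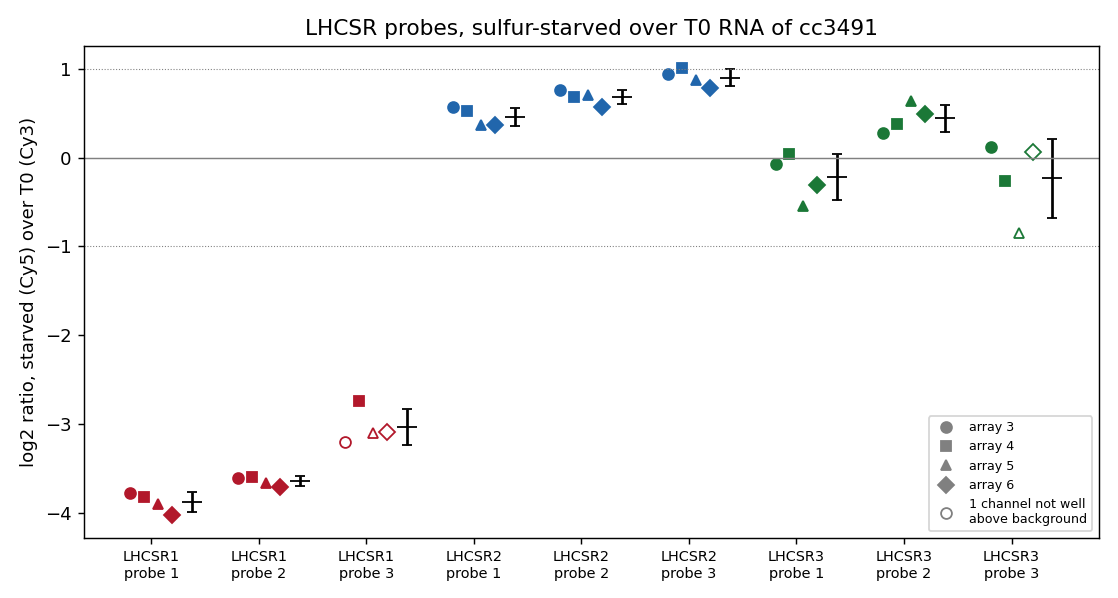
Loess-normalized log2 ratio of starved (Cy5) over T0 (Cy3) RNA for the 9 probes on arrays 3 to 6, with the mean and SD of the 4 arrays in black beside each probe and dotted lines at a 2-fold change. Open points had 1 channel not well above background. The 3 probes of *LHCSR1* lie between -4.03 and -2.74, those of *LHCSR2* between 0.37 and 1.01, and those of *LHCSR3* on both sides of 0.

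**Figure D3:**
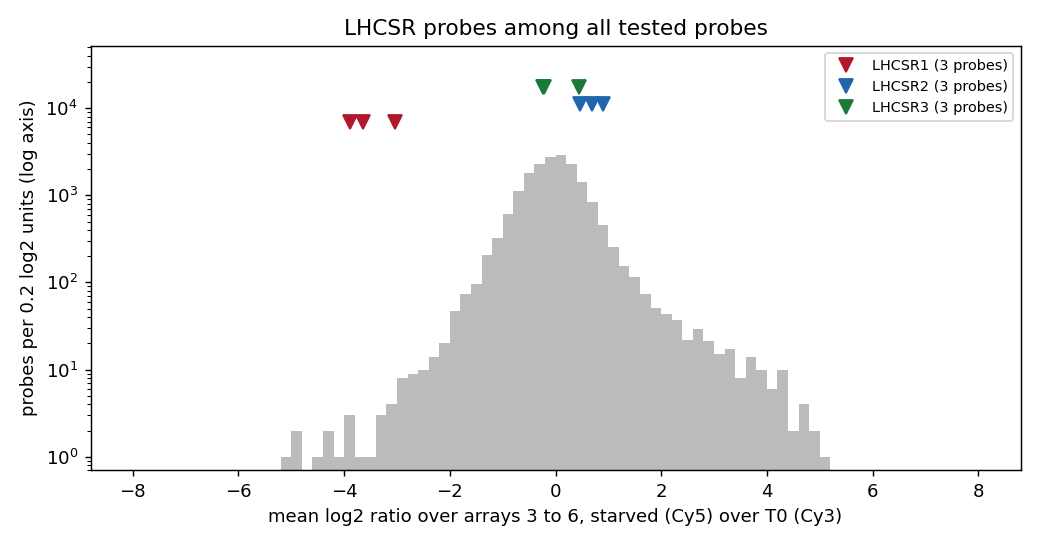
Mean log2 ratio of starved over T0 RNA over arrays 3 to 6 for the 18236 tested probes, as a histogram with a log axis for the number of probes, with triangles for the 9 LHCSR probes (their height has no meaning). The *LHCSR1* probes lie in the thinly filled lower tail, and those of *LHCSR2* and *LHCSR3* lie in the body of the distribution.

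The probes of 1 gene differed among themselves by more than their spread over arrays in several cases. Probe 1 of *LHCSR1* was lower than probe 2 by 0.17 to 0.32 log2 units on every array, and probe 3 is left out here, since its starved channel was above background on array 4 alone. In *LHCSR2* probe 1 was always the lowest, with probe 3 higher by 0.37 to 0.51. In *LHCSR3* probe 1 was lower than probe 2 by 0.34 to 1.18, and the order of probes 1 and 3 differed between arrays 3 and 4, on which probe 3 was above background in both channels.

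Probes 1 and 2 were averaged to give 1 value per gene. Probe 3, near background for *LHCSR1* and *LHCSR3*, was left out for all genes, although for *LHCSR2* it was well above background. *LHCSR1* had log2 ratios of -3.69, -3.71, -3.78 and -3.87 on arrays 3 to 6, with a mean of -3.76 ± 0.081 (SD, n = 4), 13.6-fold lower. It was called lower (limma, Holm-adjusted p = 4.74e-05 over 4993 models) and ranked 3rd lowest, where 2.2% of the models were called lower. This call held with each of arrays 3 to 6 left out and with normexp, and was lost when arrays 1 and 2, which were at background, were added (-2.45, Holm-adjusted p = 1).

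*LHCSR2* averaged 0.57 ± 0.085 (SD, n = 4) with single values of 0.67, 0.61, 0.54 and 0.47 (limma, Holm-adjusted p = 0.511, Benjamini-Hochberg adjusted p = 7.92e-04). With all 3 probes it averaged 0.68 (limma, Holm-adjusted p = 0.0749). *LHCSR3* averaged 0.11 ± 0.069 (SD, n = 4) with 0.10, 0.21, 0.05 and 0.09 (limma, Holm-adjusted p = 1, Benjamini-Hochberg adjusted p = 0.105). Neither was called, whereas the study lists both genes as higher under sulfur starvation, as means over its time points. The value of *LHCSR3* was -0.02 when arrays were centred on their median in place of loess, a scaling that gave a median of -0.23 over all tested probes, against -0.02 with loess.

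By the mean of probes 1 and 2 the order of the log2 ratios was *LHCSR2*, *LHCSR3*, *LHCSR1* on each of the 4 arrays. Each neighbour differed beyond its spread over arrays, which leaves out the spread between probes. Single probes of *LHCSR2* and *LHCSR3* did not all keep this order. On arrays 5 and 6 *LHCSR3* probe 2 was at 0.64 and 0.49, above *LHCSR2* probe 1 at 0.37 on both. The difference of *LHCSR1* minus *LHCSR3* was -3.88 (95% interval -4.00 to -3.75), of *LHCSR2* minus *LHCSR3* 0.46 (0.32 to 0.60), and of *LHCSR1* minus *LHCSR2* -4.34 (-4.37 to -4.30). An exact two-sided sign-flip permutation test over the 4 arrays gave p = 0.13 for each of the 3 differences, before and after Benjamini-Hochberg adjustment, which is the smallest p it can give. The difference between *LHCSR1* and *LHCSR2* had an SD of 0.021 over arrays, less than that of either gene alone, since both log2 ratios were lower on array 6 than on array 3 by a like amount.

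Slide 1 (arrays 3 and 4) was compared with slide 2 (arrays 5 and 6) to see whether a member depended on the slide. The starved RNA was labelled 72 and 96 h on slide 1 and 24 and 48 h on slide 2, so that slide and labelled time cannot be told apart. With limma and Benjamini-Hochberg adjustment 0 of 9 probes and 0% of 18225 probes differed, although 4214 probes had an unadjusted p under 0.05. *LHCSR3* probe 1 had mean log2 ratios of -0.02 on slide 1 and -0.42 on slide 2 (limma, adjusted p = 0.196). *LHCSR1* probe 1 had -3.80 on slide 1 and -3.96 on slide 2 (limma, adjusted p = 0.364). With normexp, 10.2% of the probes and 4 of the 9, *LHCSR1* probe 3, *LHCSR2* probes 1 and 2 and *LHCSR3* probe 1, differed between slides.

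On arrays 1 and 2 none of the members could be measured in both channels. The processed signals of the 9 probes were all marked as not well above background, apart from *LHCSR1* probe 3 on array 2, with 883 in starved RNA and 111, not well above background, in T0 RNA. Its log2 ratio there was 3.07, against values between -3.20 and -2.74 on arrays 3 to 6. Probe 1 of *LHCSR1* had signals of 417 and 96.0 in starved RNA and 207 and 95.2 in T0 RNA on these arrays.

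On the dye-test array label1 the members were close to equal in both channels. The log2 ratio of Cy5 over Cy3, here without loess, was 0.20, 0.52 and 0.26 for probes 1 to 3 of *LHCSR1*, -0.19 and 0.58 for probes 2 and 3 of *LHCSR2*, and 0.17, 0.22 and -0.46 for probes 1 to 3 of *LHCSR3*. Probe 1 of *LHCSR2* was marked as uneven and left out. None of the 8 probes was 2-fold higher or lower in Cy5, against 0.3% and 0.182% of all probes.

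On label2 the members split. The 3 probes of *LHCSR1* had processed signals of 178819, 258842 and 227493 in Cy5, all saturated, against 4276, 1784 and 21537 in Cy3, so that Cy5 was at least 41.8-, at least 145- and at least 10.6-fold higher. *LHCSR1* was thus lower in Cy5 on arrays 3 to 6 and higher in Cy5 on label2.

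Probes 1 to 3 of *LHCSR2* gave 2191, 5582 and 363 in Cy5 on label2, against 5235, 13881 and 541 in Cy3, with log2 ratios of -1.26, -1.31 and -0.57. Probes 1 to 3 of *LHCSR3* gave 12253, 4566 and 605 in Cy5, against 51126, 15000.2 and 2760 in Cy3, with log2 ratios of -2.06, -1.72 and -2.19. In all, 3 of 9 probes were at least 2-fold higher and 5 of 9 at least 2-fold lower in Cy5, against 9% and 11.9% of all probes, and 1 array gives no test. What the Cy3 and Cy5 channels of label2 hold was not tested.

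**Figure D4:**
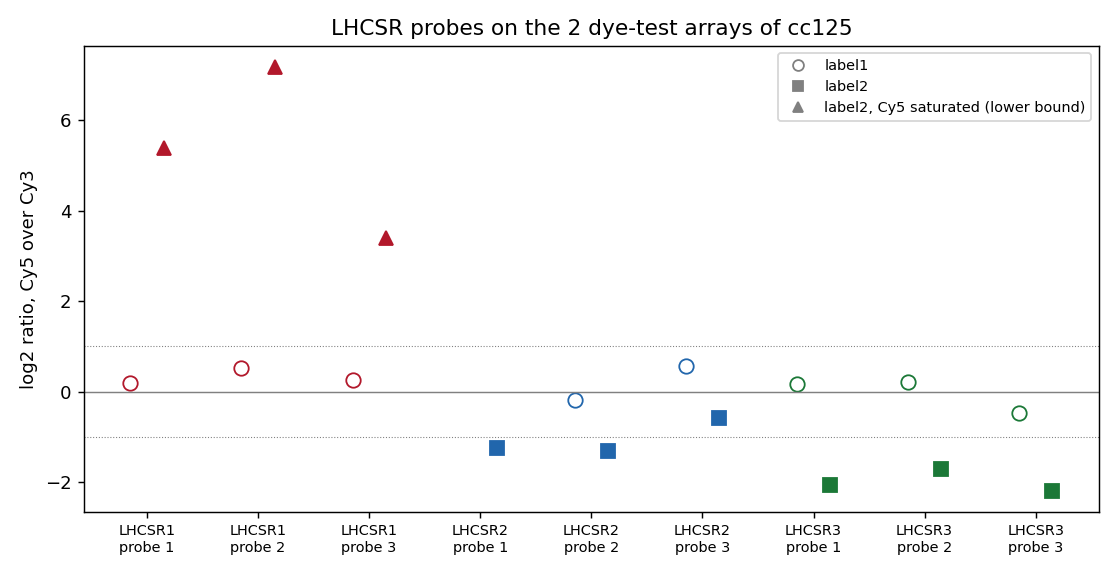
Log2 ratio of Cy5 over Cy3, without loess, of the LHCSR probes on the dye-test arrays label1 (open) and label2 (filled) of cc125, with triangles for lower bounds where Cy5 was saturated and dotted lines at a 2-fold change. On label1 the values lie between -0.46 and 0.58, while on label2 those of *LHCSR1* lie at 3.40 or above and those of the other genes below 0.

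Other genes of photoprotection were followed together with *NAB1*, which is not itself a photoprotection gene, by 12 probes of 4 models. Of these, 5 were tested, and 1 was called lower with Holm adjustment, 5 with Benjamini-Hochberg adjustment and 0 higher. Among all probes 0.367% and 4.28% were called lower. The Holm call was of *NAB1*, and the Benjamini-Hochberg calls were all of *NAB1* and *ELI3*. No probe of a photoprotection gene in this list thus passed Holm adjustment. *NAB1*, which encodes a protein that represses translation of antenna mRNAs, was lower in starved RNA with probe 1, with log2 ratios of -2.76, -2.86, -2.68 and -2.64 (limma, Holm-adjusted p = 0.00624). *ELI3*, a gene of the early light-inducible protein family, had a mean log2 ratio of -1.18 ± 0.15 (SD, n = 4) with probe 1 (limma, Holm-adjusted p = 0.692) and at least 4.05 on label2, where its Cy5 signal was saturated. *NAB1* probe 1 was at -2.31 on label2. *PSBS1* and *PSBS2*, genes of the other quenching protein PSBS, were above background on at most 2 of the 4 arrays and were not tested. The study gives the model used here for *PSBS1* to *PSBX*, a gene of a photosystem II subunit, as well, so its identity is uncertain.

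Of 36 probes of 12 other light-harvesting genes, 33 were tested. With Holm adjustment 0 were called, and with Benjamini-Hochberg adjustment 6 were called higher and 0 lower, against 4.7% and 4.28% of all probes. The median log2 ratio of the 33 was 0.23, against -0.02 over all tested probes and -0.22 over the 9 LHCSR probes. The values ran from -0.60 for *LHCBM4* probe 3 to 1.74 for *LHCBM9* probe 1, genes of the major antenna of photosystem II. None of these 33 probes came near the values of *LHCSR1*, and antenna models outside the list were not examined. On label2 28 of 36 of these probes were at least 2-fold lower in Cy5, against 11.9% of all probes, and *LHCBM9* was higher with all 3 probes, with log2 ratios of at least 3.27 to at least 4.32, since Cy5 was saturated.

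**Figure D5:**
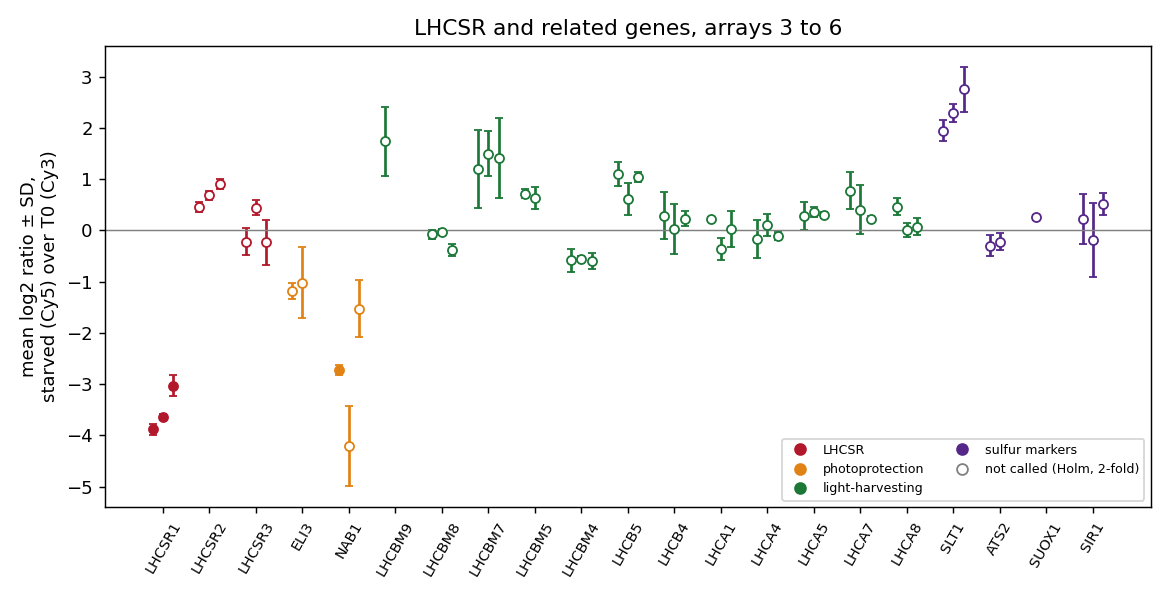
Mean log2 ratio of starved over T0 RNA with SD over arrays 3 to 6 for the tested probes. Shown are the LHCSR genes, other photoprotection genes together with *NAB1*, other light-harvesting genes and markers of sulfur starvation. Probes 1 to 3 run from left to right within a gene. Filled points passed Holm adjustment and a 2-fold change, which holds for *LHCSR1* with 3 probes and *NAB1* with 1.

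The genes with the pattern most like each member were sought among 3650 models by the root mean square difference of the log2 ratio. This was the mean of probes 1 and 2, over arrays 3 to 6, label1 and label2. For *LHCSR2* on label1 probe 2 alone was used, since probe 1 was marked as uneven there. For *LHCSR1* the 3 nearest models, 187117, 192591 and 149659, differed by 1.68, 1.99 and 2.27 log2 units, but its value on label2 is a lower bound, since Cy5 was saturated with both probes, and so these distances are not exact. *LHCSR2* lay within 0.115 to 0.144 of models 187125, 196056 and 190046, and *LHCSR3* within 0.0995 to 0.126 of models 184280, 184490 and 128227. The nearest 3 by Pearson's r over the same 6 arrays shared 0 models with these for each member. For *LHCSR1* they were models 182131, 155494 and 134594, with r between 0.9989 and 0.9996, a description over 6 arrays of which label2 lies far from the other 5, and their log2 ratios on label2 were 1.66, 1.11 and 0.77.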

How the data were processed

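The authors deposited Feature Extraction 10.7.3.1 output of 8 arrays. The deposited processed intensity per spot and channel had been corrected by the authors' software for background, spatial trend and dye, with a substitute for values not above background, and uncorrected median intensity was also deposited. The deposited value table holds log10 ratios of Cy5 over Cy3, used as log2 in an alternative. Log2 ratios of processed intensity were normalized by loess within arrays (limma 3.58.1, R 4.3.3), and spots of a probe were averaged without those marked uneven. A probe was tested if either channel was well above background on 3 or more of arrays 3 to 6. Mean ratios were tested against 0 with limma. Lowess, Holm adjustment at 0.05 and a 2-fold change follow the study's methods, which used EMMA2 software and do not name limma. Dye-test ratios were used without loess and without a test. Normexp (offset 50) used median intensity, since the files hold no means. Named genes were the LHCSR models with all probes, the 3 models nearest to each, and the called, highest or lowest models of the lists. The members and lists were chosen with earlier results of these data known. The lists were limited to genes with a JGI identifier in the study, but not every light-harvesting model with such an identifier was included. The study also gives the models used here for *LHCB5* and *LHCA5* under another antenna gene name. Of 14557 models, 12302 matched a locus tag. Of these steps only the limma test and its calling thresholds were tried on simulated log2 ratios, with noise that was independent between arrays. Number of arrays and signal over background limit the precision. Arrays of the nitrogen series and of *npq4* are not analysed here. Figures used matplotlib 3.10.9 (Python 3.11.15).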

Additional observations from a re-analysis of the deposited data

Results flagged for a closer look

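On label2, an array outside the comparison of starved with T0 RNA, 8 of the 9 LHCSR probes differed at least 2-fold between Cy5 and Cy3, while 0 of 8 did on label1. The log2 ratios of Cy5 over Cy3 were 5.39, 7.18 and 3.40 for *LHCSR1* probes 1 to 3, with Cy5 saturated, -1.26 and -1.31 for *LHCSR2* probes 1 and 2, and -2.06, -1.72 and -2.19 for *LHCSR3* probes 1 to 3. Among the 6 starvation arrays, *LHCSR2* probe 3 on array 1 stood apart from the others, at -0.62 against 0.79 to 1.53, with a gap of 0.654 of the whole range. Neither channel was well above background there, and of 24 sets of values examined in this way 1 stood apart, where chance gives about 1 in 20.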

How the results depend on the processing

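The number of LHCSR probes called was 3, and 0 with all 6 arrays (also with slide as a random block, a setting added after seeing the data), with normexp and with the arrays of a slide averaged. Leaving out 1 of arrays 3 to 6 gave 0 to 2 LHCSR probes and 8 to 16 of all probes. The number of all probes called was 212 (145 higher, 67 lower). It was 6 with all 6 arrays, 5 with these and slide as a random block, 1639 with Benjamini-Hochberg adjustment, 136 with normexp (59 higher, 77 lower), 138 with median centring, 58 without a filter, 466 with both channels above background, 107 with slide as a random block, 0 with the arrays of a slide averaged and 547 with the mean of both dye-test arrays subtracted. Without background correction it was 259 (89 higher, 170 lower), 2 of them LHCSR probes. The slide comparison gave 4 LHCSR probes with normexp. *LHCSR3* changed direction, with a mean of probes 1 and 2 of -0.021 under median centring, -0.084 with label1 subtracted and -0.0016 with all 3 probes. Its probe 3 was at 0.23 with label1 subtracted and at 1.09 with both dye-test arrays subtracted, and its probe 1 at 0.73 with both subtracted. No probe of *LHCSR1* or *LHCSR2* changed direction under any alternative, and the mean of *LHCSR1* ran from -7.08 to -2.45. The 3 differences between genes kept their sign. The cause of these changes was not tested. No paired analysis was possible because the dye-test and starvation arrays are of different strains and share no sample by their numbers, no test compared these groups, and each starvation array already pairs starved with T0 RNA. Signal over background limits probe 3 of *LHCSR1* and of *LHCSR3*.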
